A study of Arabidopsis thaliana with 10 samples.

Results

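Segment II of the inflorescence stem of Arabidopsis thaliana was compared between a library labelled atx1 and the wild type (WT, accession Col), with 1 RNA-seq library a side. Stems were 20 cm tall and segment II lay 5 to 7 cm below the top. All plants grew at 22 °C in a cycle of 16 h light and 8 h dark. The labels give the genotypes only as atx1 and WT, and they name neither the mutant allele nor the number of plants behind a library. WT segments I (0 to 3 cm) and III (10 to 12 cm), also with 1 library each, served as further points of comparison, and the other 6 of the 10 samples in the series, from chromatin immunoprecipitation and its inputs, were not analysed here.

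The members of the comparison were the genes with a value of at least 1 FPKM in either library, which came to 18051 of the 23615 genes listed in each file. FPKM are fragments scaled by transcript length and by all mapped fragments, so levels can be compared between genes. The 22 genes at the edge of this filter had 1 FPKM in their higher library, and the 20 genes just outside it had 0.99. Each difference below is that of log2(FPKM + 1), atx1-labelled library minus WT II, less the median of that difference over all members, which was 0.30. Centred differences of at least 1 in size, 2-fold from the typical gene, are called higher or lower. With 1 library a side there is no spread between replicates and no test, so each value describes these libraries.

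ATX1 is a histone methyltransferase that adds methyl groups to lysine 4 of histone H3, a mark found near the start of transcribed genes. The comparison addresses the part of ATX1 in making the secondary walls of stem fibres. Those walls are laid down inside the primary wall once a cell has stopped growing, and they hold cellulose, xylan and lignin. In stems, NAC factors such as SND1 and NST1 switch the programme on in fibres and VND factors do so in vessels. They act through MYB46 and MYB83, which in turn switch on further MYB factors and the enzymes of the 3 polymers.

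The level of ATX1 (AT2G31650) itself went against the mutant label. It was at 21.76 FPKM in the atx1-labelled library, against 4.02, 6.09 and 3.54 FPKM in WT I, II and III, a centred difference of 1.38 over WT II. All 3 WT libraries were below the atx1-labelled one. It is therefore named as the atx1-labelled library, and every direction below rests on the label. Gene-level FPKM leave unseen where along the transcript the fragments fell, and the allele is not named, so the level does not settle the genotype.

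The genes next to ATX1, chosen by position, had levels of their own. In the order of the TAIR10.1 annotation, its neighbour SAD2 (AT2G31660), an importin-like gene, was at 20.71 FPKM in the atx1-labelled library, against 26.85, 13.86 and 19.85 FPKM in WT I, II and III. The next gene, AT2G31670, was called lower, at 42.81 FPKM against 68.13, 74.92 and 63.4 FPKM. RABA5d, a small GTPase gene, was at 20.94 FPKM against 26.41, 15.97 and 17.18 FPKM. ATX1 was the one called higher among the 6 members of the comparison in this stretch.

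Other genes of the H3K4 methylation machinery lay mostly within 2-fold. Of 13 methyltransferase and COMPASS-like subunit genes, 0 were higher and 1 was lower, with a median of 0.22. The lower one was ASHR3, a SET-domain gene, at 1.52 FPKM in the atx1-labelled library, against 4.51, 5.42 and 6.78 FPKM in WT I, II and III. RBL, a COMPASS-like subunit, was within 2-fold at 5.33 FPKM, against 15.55, 9.19 and 13.13 FPKM. The 7 H3K4 demethylase genes had 0 higher and 0 lower, with JMJ18 nearest to a call at 15.6 FPKM, against 14.99, 25.58 and 22.33 FPKM.

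Among all members, 1487 genes were called higher in the atx1-labelled library (8.24%) and 2450 lower (13.6%), while 14114 (78.2%) lay within 2-fold of WT II. At least 4-fold differences were found in 369 genes on the higher side and 585 on the lower. At least 16-fold differences were found in 47 and 30. The split depends on the centring, since without it 2665 genes were higher and 1569 lower. These shares are the background for the gene lists below.

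**Figure D1:**
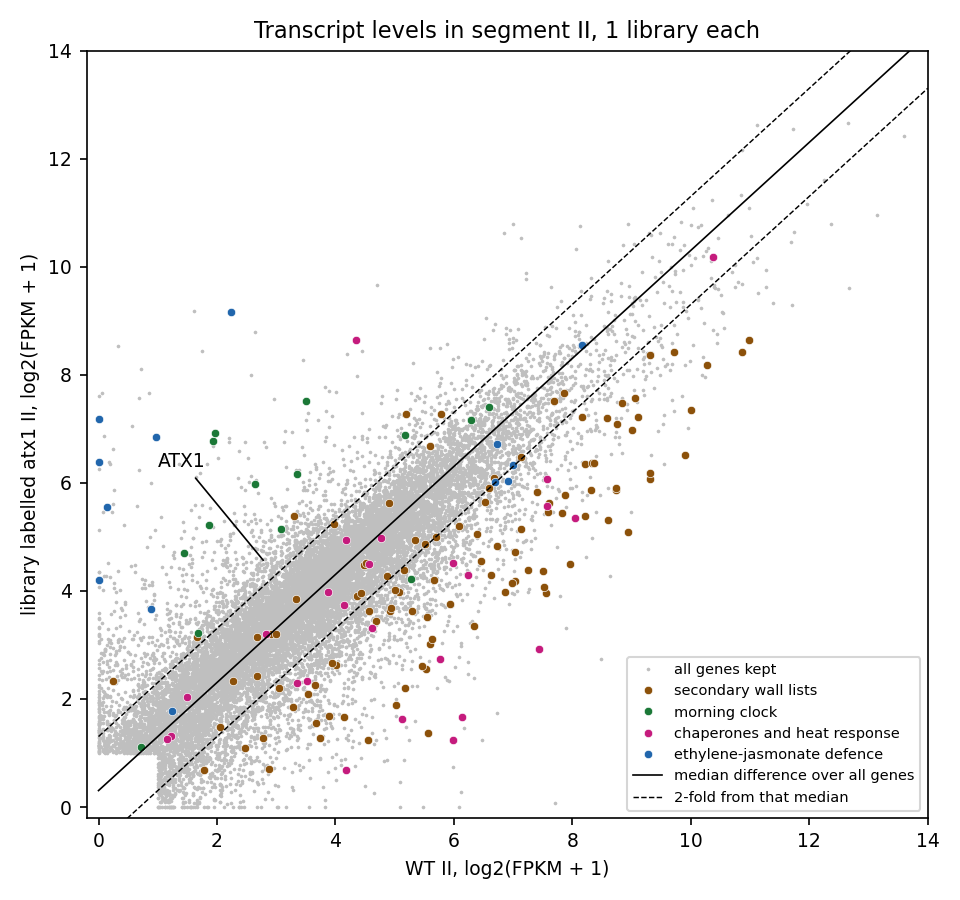
Levels of all 18051 members in the atx1-labelled library (vertical axis) against WT II (horizontal axis), both as log2(FPKM + 1), 1 point a gene, with the median difference of 0.30 as a solid line and 2-fold from it dashed. Points of the 6 secondary wall lists lie mostly below the lower dashed line, as do many chaperone and heat response genes, and morning clock and ethylene-jasmonate defence genes lie mostly above the upper one.

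The depths estimated for the 4 libraries were alike. They were 19200000 fragments in the atx1-labelled library and 20100000, 19200000 and 19100000 in WT I, II and III. The steps of the low values allow multiples of these depths too, so like depth is not certain. The number of genes at 1 FPKM or more was 17411 in the atx1-labelled library and 17334, 16957 and 17282 in WT I, II and III. The meristem and stem gene KNAT1, chosen after its values were seen, was at 66.9 FPKM, against 82.12, 66.44 and 67.75 FPKM. Markers of roots were at or near 0, the 6 listed summing to 0.14 FPKM in the atx1-labelled library and 0.46, 0.29 and 0.52 FPKM in WT I, II and III. The 13 listed floral organ genes summed to 150.13 FPKM, against 136.19, 127.81 and 117.23 FPKM. Pollen and tapetum genes summed to 29.88 FPKM, against 4.72, 13.54 and 8.69 FPKM, and 1 of the 7 measured, SKS13, was called higher over WT II. Over WT I and over WT III, 6 of the 7 were called higher, with medians of 1.34 and 1.74. Their part in the results below was not tested. In bulk tissue, fewer cells of a type and less RNA per cell cannot be told apart.

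Secondary wall genes as a whole were lower in the atx1-labelled library than in WT II. Over the 6 secondary wall lists together, 81 of 108 measured genes were lower and 5 higher, with a median of -1.85, where 13.6% and 8.24% of all members were lower and higher. Their summed level was 5926.34 FPKM in the atx1-labelled library, against 3434.48, 21628.75 and 25926.21 FPKM in WT I, II and III. By FPKM as deposited, 57 of the 108 genes lay between WT I below and WT II above, where 8.2% of all members did. Only genes whose WT level rises from segment I to segment II can enter this class. The wall genes rose in that way as a sum, so the 8.2% is not a matched background. The share among rising genes alone was not computed. Another 36 of the 108 genes lay below all 3 WT libraries, against 22.8% of all members, and 8 lay above all 3, against 41.7%. By at least 2-fold after centring, 15 of 112 wall genes measured in the 4 libraries were below the whole WT range and 4 above it, against 4.68% and 4.75% of all 18858 genes.

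The NAC regulators at the top of the programme were partly lower. Of 12 measured, 7 were lower and 0 higher, with a median of -1.27. SND1, the fibre switch, was at 59.26 FPKM in the atx1-labelled library, against 1.41, 95.81 and 130.69 FPKM in WT I, II and III. Its centred difference of -0.99 fell just inside 2-fold. NST1, which acts with it, was at 28.19 FPKM, against 18.77, 44.75 and 44.3 FPKM, also within 2-fold at -0.95. Both fibre switches were thus nearer to WT II than their downstream partner SND2, which was at 25.45 FPKM, against 5.3, 129.55 and 127.24 FPKM.

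The vessel switches VND6 and VND7 were lower. VND6 was at 1.94 FPKM in the atx1-labelled library, against 9.47, 11.75 and 8.8 FPKM in WT I, II and III, below all 3. VND7 was at 1.43 FPKM, against 2.75, 5.88 and 2.48 FPKM. VND4, a further member, was at 5.2 FPKM, against 4.62, 15.04 and 9.01 FPKM, and NST2 was at 5.31 FPKM, against 0.09, 14.43 and 14.97 FPKM. The 2 repressors in the list, chosen after their values were seen, lay on the other side of 0. XND1, which holds back xylem formation, was at 36.95 FPKM, against 3.47, 14.74 and 10.34 FPKM, and VNI2, which binds VND7, was at 102.32 FPKM, against 18.79, 47.24 and 67.5 FPKM. Neither was called, with centred differences of 0.97 and 0.79.

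MYB and other regulators downstream were lower for 15 of 22 measured and higher for 0, with a median of -1.64. MYB46 was at 7.65 FPKM in the atx1-labelled library, against 10.69, 48.32 and 35.25 FPKM in WT I, II and III. MYB83, its close partner, was at 1.12 FPKM, against 3.55, 4.56 and 4.19 FPKM. Both were below even WT I, the youngest segment. MYB103, a regulator of fibre walls, was at 14.68 FPKM, against 1.96, 186.97 and 163.4 FPKM, the largest difference of the list at -3.89. MYB63, an activator of lignin genes, was at 4.9 FPKM, against 1.87, 45.07 and 41.26 FPKM. Below the whole WT range lay the zinc finger regulators C3H14 and C3H15. C3H14 was at 1.35 FPKM, against 6.2, 22.37 and 13.12 FPKM, and C3H15 at 3.59 FPKM, against 11.44, 35.04 and 23.65 FPKM.

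**Figure D2:**
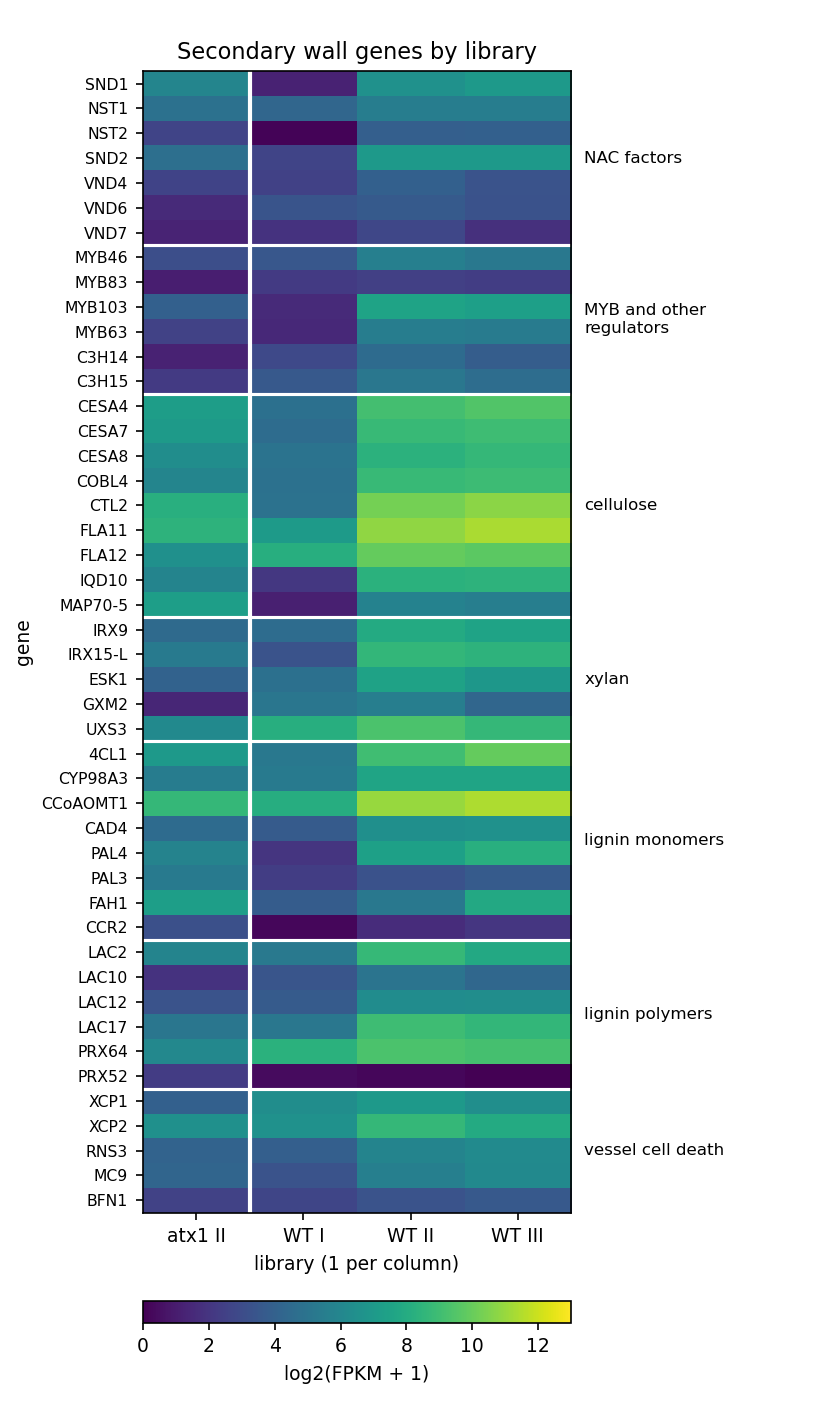
Levels of 46 genes of wall formation and vessel cell death in the 4 libraries, 1 library a column, as log2(FPKM + 1) on a colour scale, grouped by role. WT II and WT III are alike for most genes and the atx1-labelled column is darker, as for CESA4 at 147.48 FPKM against 553.74 and 714.52 FPKM, while MAP70-5, PAL3, CCR2 and PRX52 are brightest in the atx1-labelled column.

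Secondary wall cellulose genes were lower for 13 of 14, with a median of -2.24. The 3 cellulose synthases of secondary walls went the same way. CESA4 was at 147.48 FPKM in the atx1-labelled library, against 26.67, 553.74 and 714.52 FPKM in WT I, II and III. CESA7 was at 136.07 FPKM, against 23.51, 429.85 and 500.76 FPKM. CESA8 was at 82.07 FPKM, against 29.5, 328.51 and 401.36 FPKM. Each lay between WT I and WT II, at centred differences of -2.21, -1.96 and -2.29.

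Among their partners, FLA12, a fasciclin-like arabinogalactan protein gene of fibre walls, was below all 3 WT libraries, at 90.87 FPKM against 281.29, 959.6 and 854.68 FPKM in WT I, II and III. FLA11, its close relative, was at 341.09 FPKM, against 136.74, 1866.37 and 2635.8 FPKM. COBL4, which takes part in cellulose crystallisation, was at 58.61 FPKM, against 27.64, 426.51 and 487.09 FPKM. CTL2, a chitinase-like gene, was at 289.86 FPKM, against 29.35, 1242.07 and 1686.89 FPKM, and IQD10 was at 57.26 FPKM, against 3.33, 316.87 and 341.25 FPKM. The exception was MAP70-5, a microtubule-associated protein gene linked to vessel wall bands, at 154.12 FPKM, against 1.2, 53.75 and 45.47 FPKM. It was above all 3 WT libraries.

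Of 32 xylan synthesis genes, 28 were lower and 0 higher, with a median of -2.44. IRX9, of xylan backbone extension, was at 21.53 FPKM in the atx1-labelled library, against 22.99, 248.13 and 185.87 FPKM in WT I, II and III. IRX15-L was at 39.01 FPKM, against 9.19, 389.11 and 335 FPKM. ESK1, an acetyltransferase of xylan, was at 15.77 FPKM, against 27.02, 181.71 and 118.28 FPKM. GXM2, a methyltransferase of the glucuronic acid side groups, was far below every WT library at 1.59 FPKM, against 33.04, 46.27 and 18.27 FPKM. UXS3, which makes the UDP-xylose substrate, was at 71.39 FPKM, against 280.81, 634.56 and 409.32 FPKM. The 4 genes within 2-fold, chosen after their values were seen, were TBL35, IRX9-L, GUX3 and TBL32. For the last 3 the atx1-labelled library and WT II were close, with IRX9-L at 21.18 and 21.45 FPKM, GUX3 at 21.81 and 21.77 FPKM and TBL32 at 8.2 and 6.54 FPKM.

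Most lignin genes called were lower at both stages, with exceptions at each. In monomer synthesis 10 of 18 were lower and 3 higher, with a median of -1.42. 4CL1, which activates cinnamic acids, was at 125.9 FPKM in the atx1-labelled library, against 35.93, 516.28 and 967.81 FPKM in WT I, II and III. CCoAOMT1, a methyltransferase of the pathway, was at 399.07 FPKM, against 274.36, 2027.77 and 2702.19 FPKM. CYP98A3, a hydroxylase, was at 43.25 FPKM, against 38.43, 191.96 and 188.73 FPKM. CAD4, an alcohol dehydrogenase gene of the last step, was at 22.55 FPKM, against 12.12, 86.48 and 96.04 FPKM, and PAL4, at the entry, was at 55.62 FPKM, against 3.07, 168.46 and 288.48 FPKM.

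The 3 higher monomer genes were PAL3, CCR2 and FAH1. PAL3, another entry gene, was at 40.64 FPKM in the atx1-labelled library, against 4.11, 8.82 and 12.2 FPKM in WT I, II and III. CCR2, a reductase gene known more from defence than from stem lignin, was at 7.88 FPKM, against 0.18, 2.18 and 3.15 FPKM. Both were above all 3 WT libraries. FAH1, the hydroxylase of the syringyl branch, was at 154.7 FPKM, against 12.66, 35.49 and 230.48 FPKM, and WT III was higher than the atx1-labelled library. Against WT III, FAH1 had a centred difference of -0.68.

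In lignin polymerisation 8 of 10 genes were lower and 1 higher, with a median of -3.05. The laccase gene LAC17, whose product couples lignin monomers, was at 32.94 FPKM in the atx1-labelled library, against 34.85, 491.49 and 385.94 FPKM in WT I, II and III. LAC2, LAC10 and LAC12 were lower as well, LAC2 at 57.8 FPKM against 37.12, 424.7 and 230.64 FPKM. The peroxidase gene PRX64 was at 66.43 FPKM, against 319.69, 635.04 and 579.85 FPKM, below all 3. PRX52 was the higher one at 4.02 FPKM, against 0.3 and 0.18 FPKM in WT I and II, and it was listed at 0 in WT III.

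Markers of vessel cell death, which follows wall formation in the xylem, were lower for 5 of 5, with a median of -2.04. The protease genes XCP1 and XCP2 had 14.58 and 91.93 FPKM in the atx1-labelled library, against 125.3 and 402.87 FPKM in WT II. The metacaspase gene MC9 was at 17.8 FPKM, against 9.01, 48.67 and 70.96 FPKM in WT I, II and III, and the ribonuclease gene RNS3 at 16.59 FPKM, against 14.08, 57.68 and 73.11 FPKM. BFN1, a nuclease gene, was at 4.87 FPKM, against 5.59, 8.97 and 11.43 FPKM. Vessel markers were thus lower together with the wall genes, and their part in the wall result was not tested.

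Other vascular tissues showed smaller and mixed differences. Of 18 cambium and vascular patterning genes, 2 were higher and 2 lower, with a median of 0.00. WOX4, which keeps cambium cells dividing, was at 6.94 FPKM in the atx1-labelled library, against 24.63, 14.22 and 19.65 FPKM in WT I, II and III. ANT was lower too, at 7.38 FPKM against 14.06, 15.06 and 27.36 FPKM. ACL5, which makes thermospermine and restrains xylem formation, was higher at 129.94 FPKM, against 58.07, 27.61 and 53.96 FPKM. LBD4 was at 13.66 FPKM, against 4.99, 4.39 and 11.36 FPKM.

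Of 11 phloem genes, 1 was higher and 3 were lower, with a median of -0.36. The sugar exporter SWEET11 was at 610.66 FPKM in the atx1-labelled library, against 16.43, 213.67 and 58.73 FPKM in WT I, II and III. The sieve element genes SEOR1 and SEOR2 were lower, SEOR2 at 56.51 FPKM against 80.74, 109.93 and 68.05 FPKM, and CALS7 was at 2.57 FPKM, against 6.29, 5.79 and 2.83 FPKM. The 4 starch sheath markers summed to 92.31 FPKM, against 82.34, 59.56 and 62.71 FPKM, and SHR was the 1 called lower.

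Genes of primary wall growth were partly lower. Of 9 primary wall cellulose genes 4 were lower, with a median of -0.91. CESA5 was at 20.13 FPKM in the atx1-labelled library, against 84.57, 55.69 and 81.07 FPKM in WT I, II and III. CTL1, a chitinase-like gene of growing cells, was at 823.07 FPKM, against 1080.16, 1870.26 and 2208.8 FPKM. Of 26 expansin and XTH genes, which loosen and remodel walls, 13 were lower and 2 higher, with a median of -0.97. XTH18 was at 1.8 FPKM, against 67.22, 35.74 and 9.81 FPKM, and EXPA15 at 6.64 FPKM, against 23.29, 39.38 and 98.09 FPKM. EXPA1 was higher at 23.66 FPKM, against 13.1, 8.02 and 9.82 FPKM. Among 25 cell cycle genes, 1 was lower and 0 higher, CDKB2;1 at 5.75 FPKM against 34.04, 10.84 and 14.95 FPKM, with a list median of -0.63. Over WT III 12 of 25 were lower and 1 higher, with a median of -0.92. Over WT I 25 of 27 were lower and 0 higher, with a median of -2.35. By FPKM as deposited 20 of the 25 lay below all 3 WT libraries, where 22.8% of all members did.

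**Figure D3:**
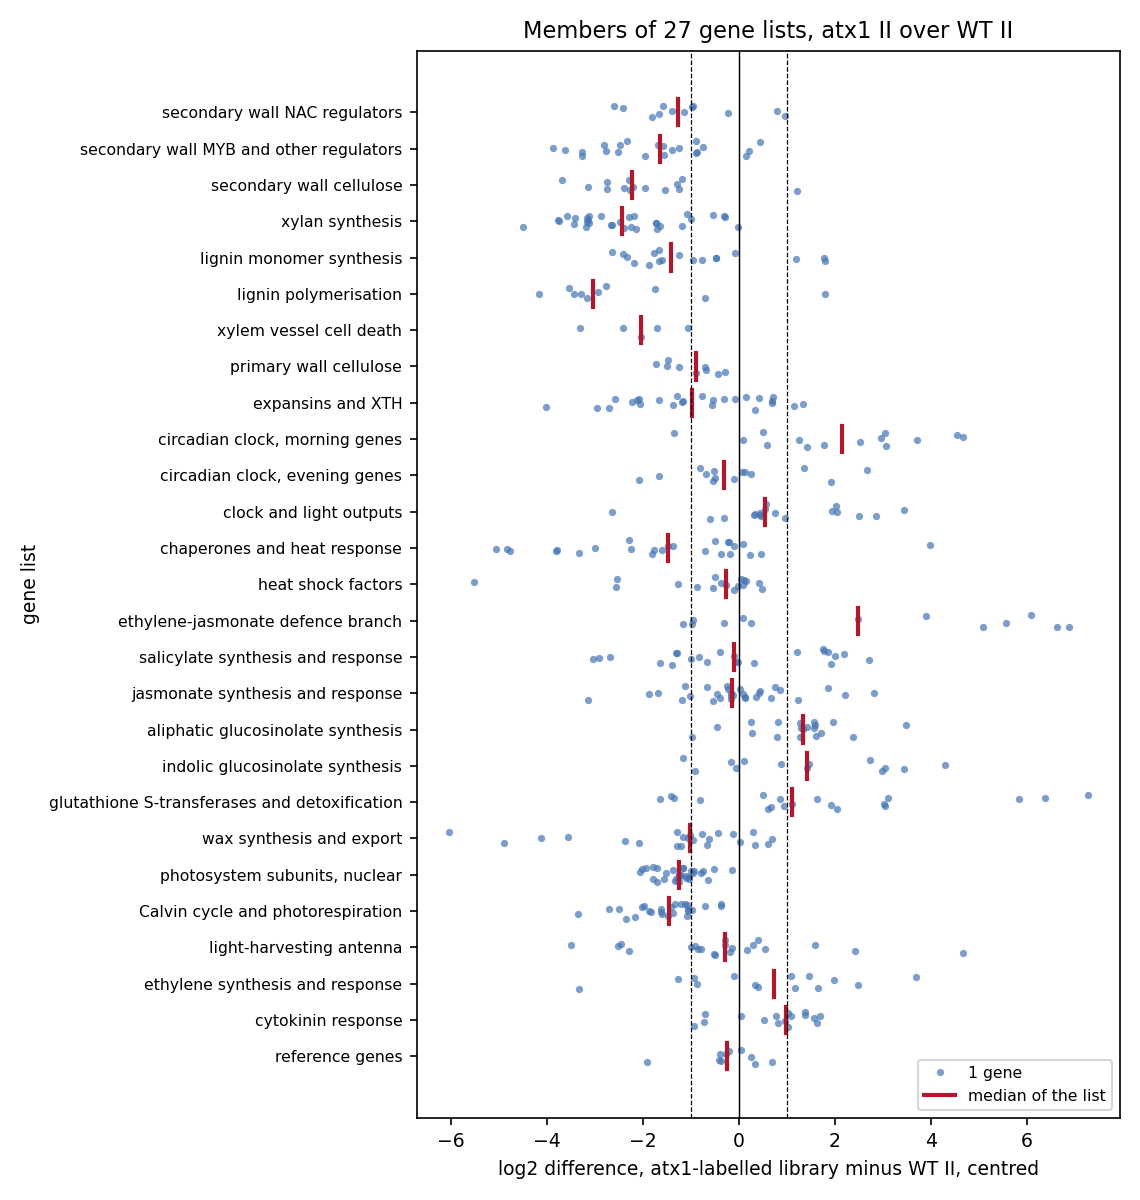
Centred log2 differences, atx1-labelled library minus WT II, for the measured members of 27 lists, 1 point a gene, with the list median as a red bar and 2-fold as dashed lines. Wall lists lie left of 0, with medians from -1.27 for NAC regulators to -3.05 for lignin polymerisation, and the morning clock (2.14) and ethylene-jasmonate defence (2.48) medians lie furthest right.

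The largest differences lay outside the wall programme. On the higher side, among named genes with at least 10 FPKM in the higher library, stood EARLI1, NIT2, GSTF6, GRP3S, PDF1.2, HEL, EXT4, PLA2A, GSTF7 and DIN11. EARLI1, a lipid transfer-like protein gene, was at 195.33 FPKM in the atx1-labelled library, listed at 0 in WT I and II and at 1.14 FPKM in WT III. NIT2, a nitrilase gene, was at 201.08 FPKM, listed at 0 in WT I and at 0.04 and 0.49 FPKM in WT II and III. GRP3S, a glycine-rich protein gene, was at 275.48 FPKM, against 5.45, 0.65 and 2.49 FPKM in WT I, II and III. EXT4, an extensin gene, was at 188.55 FPKM, against 1.02, 0.61 and 1.79 FPKM. PLA2A, a patatin-like lipase gene, was at 200.6 FPKM, against 0.07, 0.8 and 2.26 FPKM. In these genes all 3 WT libraries were far below the atx1-labelled one. Of 12 genes at 10 FPKM or more that were listed at 0 in WT II, 3 were listed at 0 in all 3 WT libraries, and these were the defensin genes PDF1.2, PDF1.2c and PDF1.4, the last chosen after its value was seen.

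On the lower side stood GER3, GASA6, CER1, HSFA2, RL4, HSP70, HSP17.4, MAH1, MBF1C and HSP101. GER3, a germin-like gene, was listed at 0 in the atx1-labelled library, against 1682.09, 67.05 and 0.12 FPKM in WT I, II and III. As it was near 0 in WT III too, it did not set the atx1-labelled library apart. GASA6, a gibberellin-regulated peptide gene, was at 0.21 FPKM, against 52.14, 68.92 and 7.07 FPKM. RL4, a small MYB-like gene, was at 2.35 FPKM, against 90.67, 104.94 and 68.33 FPKM. The other 7 were of 2 groups, heat shock and wax, described below.

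Defence genes of the ethylene and jasmonate branch were partly higher, while those of other branches went both ways. Of 13 measured members of this branch, 7 were higher, 5 within 2-fold and 1 lower. The list was thus split, and its median of 2.48 was the lowest of the 7 higher values. ORA59, the factor that joins ethylene and jasmonate signals, was at 45.82 FPKM in the atx1-labelled library, listed at 0 in WT I and at 0.11 and 0.44 FPKM in WT II and III. Its target PDF1.2, a defensin gene, was at 144.11 FPKM and listed at 0 in all 3 WT libraries. HEL, a hevein-like pathogenesis-related gene, was at 574.85 FPKM, against 0.15, 3.7 and 6.72 FPKM. PDF1.3 was at 113.95 FPKM, against 0.61, 0.96 and 0.11 FPKM. The PDF1 copies are close paralogs, and how their common reads were divided makes single levels uncertain. ERF6, a stress-responsive factor, was the lower one at 64.7 FPKM, against 240.05, 119.05 and 138.48 FPKM.

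Jasmonate synthesis and response genes did not follow that branch over WT II. Of 30, 4 were higher and 6 lower, with a median of -0.14, beside 8.24% and 13.6% of all members. Over WT III 9 were higher and 3 lower, with a median of 0.17, beside 8.33% and 11.1% of all genes. Over WT I 11 were higher and 6 lower, with a median of 0.52, beside 18.0% and 19.8%. LOX3, a lipoxygenase gene, was at 9.67 FPKM in the atx1-labelled library, against 116.63, 76.11 and 94.95 FPKM in WT I, II and III. JAZ7, a repressor gene, was at 14.95 FPKM, against 39.45, 46.15 and 23.65 FPKM. The cyclase genes AOC2 and AOC1 were higher, AOC2 at 77.34 FPKM against 1.23, 8.01 and 3.75 FPKM. VSP1, a storage protein gene that responds to jasmonate, was at 189.78 FPKM, against 658.13, 41.45 and 3.91 FPKM. It was therefore higher than in WT II and III and lower than in WT I.

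Salicylate genes were split, with 8 of 23 higher and 7 lower and a median of -0.11. SARD1, an activator of salicylate synthesis, was at 3.73 FPKM in the atx1-labelled library, against 89.12, 30.67 and 44.5 FPKM in WT I, II and III. PBS3, of salicylate synthesis, was at 1.75 FPKM, against 23.69, 13.36 and 13.25 FPKM. NIMIN1, which binds the receptor NPR1, was at 0.56 FPKM, against 80.51, 8.57 and 17.28 FPKM. These 3 were below all WT libraries. CBP60g, a close relative of SARD1, was at 65.43 FPKM, against 9.95, 10.76 and 61.06 FPKM, and PR2, a glucanase gene, at 114.83 FPKM, against 1.82, 13.25 and 62.19 FPKM. For CBP60g the atx1-labelled library and WT III were alike, and its centred difference over WT III was -0.01.

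Camalexin synthesis had 3 of 7 higher and 0 lower, with a median of 0.83. PAD3, of the last step, was at 14.69 FPKM in the atx1-labelled library, listed at 0 in WT I and at 0.22 and 0.86 FPKM in WT II and III. Of 19 glutathione S-transferase and detoxification genes, 10 were higher and 3 lower, with a median of 1.099. GSTF6 was at 582.08 FPKM, against 2.42, 2.06 and 39.54 FPKM, and GSTF7 at 346.75 FPKM, against 0.32, 2.37 and 30.09 FPKM. These 2 genes are almost the same in sequence, so their split is uncertain. GSTF2 was at 1479.08 FPKM, against 2.86, 139.13 and 223.16 FPKM. GSTF8 went the other way at 250.83 FPKM, against 533.49, 522.54 and 680.61 FPKM.

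Glucosinolate synthesis was higher, and the enzymes that break glucosinolates down were partly lower. For the aliphatic branch, made from methionine, 13 of 19 genes were higher and 0 lower, with a median of 1.33. MAM1, of chain elongation, was at 1570.77 FPKM in the atx1-labelled library, against 17.03, 113.7 and 562.11 FPKM in WT I, II and III. BCAT4, of the first step, was at 948.01 FPKM, against 24.34, 147.41 and 796.36 FPKM. CYP79F1 was at 294.64 FPKM, against 8.27, 72.69 and 354.73 FPKM, and the regulator MYB29 at 128.51 FPKM, against 9.74, 33.34 and 87.86 FPKM. BCAT4, CYP79F1 and MYB29 were nearer to WT III than to WT II, and MAM1 was above both. Against WT III the list had 2 higher, 0 lower and a median of -0.08.

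The indolic branch, made from tryptophan, had 7 of 13 higher and 1 lower, with a median of 1.43. IGMT4, a methyltransferase gene, was at 186.11 FPKM in the atx1-labelled library, against 1.25, 6.78 and 42.96 FPKM in WT I, II and III. IGMT1 and IGMT3 were higher too, but IGMT copies are close paralogs that can share reads. CYP81F2, a hydroxylase gene, was at 19.48 FPKM, against 0.97, 0.54 and 0.87 FPKM. SOT16, a sulphotransferase gene, was lower at 111.86 FPKM, against 102.82, 204.15 and 198.2 FPKM. Among 11 genes of transport and breakdown 3 were higher and 5 lower, with a median of -0.79. The myrosinase genes TGG1 and TGG2 were at 727.68 and 1762.78 FPKM, against 2235.66 and 5272.54 FPKM in WT II. PEN2, an atypical myrosinase gene, was higher at 129.64 FPKM, against 32.85, 42.16 and 51.19 FPKM.

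Most morning genes of the circadian clock were above all 3 WT libraries. Of 14 measured, 10 were higher and 1 lower, with a median of 2.14. By FPKM as deposited 13 were above all 3 WT libraries, where 41.7% of all members were. By at least 2-fold after centring, 9 of 14 were above the whole WT range, against 4.75% of all 18858 genes. CCA1 was at 121.08 FPKM in the atx1-labelled library, against 1, 2.91 and 1.62 FPKM in WT I, II and III. LHY, its partner MYB, was at 108.31 FPKM, against 1.53, 2.8 and 1.64 FPKM. Both peak around dawn. The coactivator genes LNK2 and LNK3 were at 182.72 and 36.46 FPKM, against 10.34 and 2.63 FPKM in WT II. PRR5, which is in this list but peaks later in the day, was at 61.91 FPKM, against 4.45, 5.22 and 6.19 FPKM. RVE7 went against the others at 17.69 FPKM, against 20.72, 37.78 and 54.51 FPKM.

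The list of evening clock genes had 3 of 14 higher and 2 lower, with a median of -0.30. LUX and BOA, of the evening complex, were lower, LUX at 19.21 FPKM in the atx1-labelled library, against 40.51, 51.02 and 54.27 FPKM in WT I, II and III, and BOA at 10.93 FPKM, against 32.7, 39.81 and 47.15 FPKM. CDF2, CDF3 and FKF1 were higher, CDF3 at 38.05 FPKM against 1.12, 4 and 8.3 FPKM. CDF2 and CDF3 transcripts peak in the morning, so the list does not hold evening genes alone. Of 18 genes driven by the clock and light, 6 were higher and 1 lower, with a median of 0.55. COL1 was at 67.45 FPKM, against 1.61, 4.11 and 4.16 FPKM. FT, the mobile flowering signal, was at 42.51 FPKM, against 1.37, 3.89 and 6.06 FPKM. BAM5 was lower at 2.8 FPKM, against 21.11, 18.38 and 7.31 FPKM. The labels give no time of harvest, so time of day and label cannot be told apart for any result here.

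**Figure D4:**
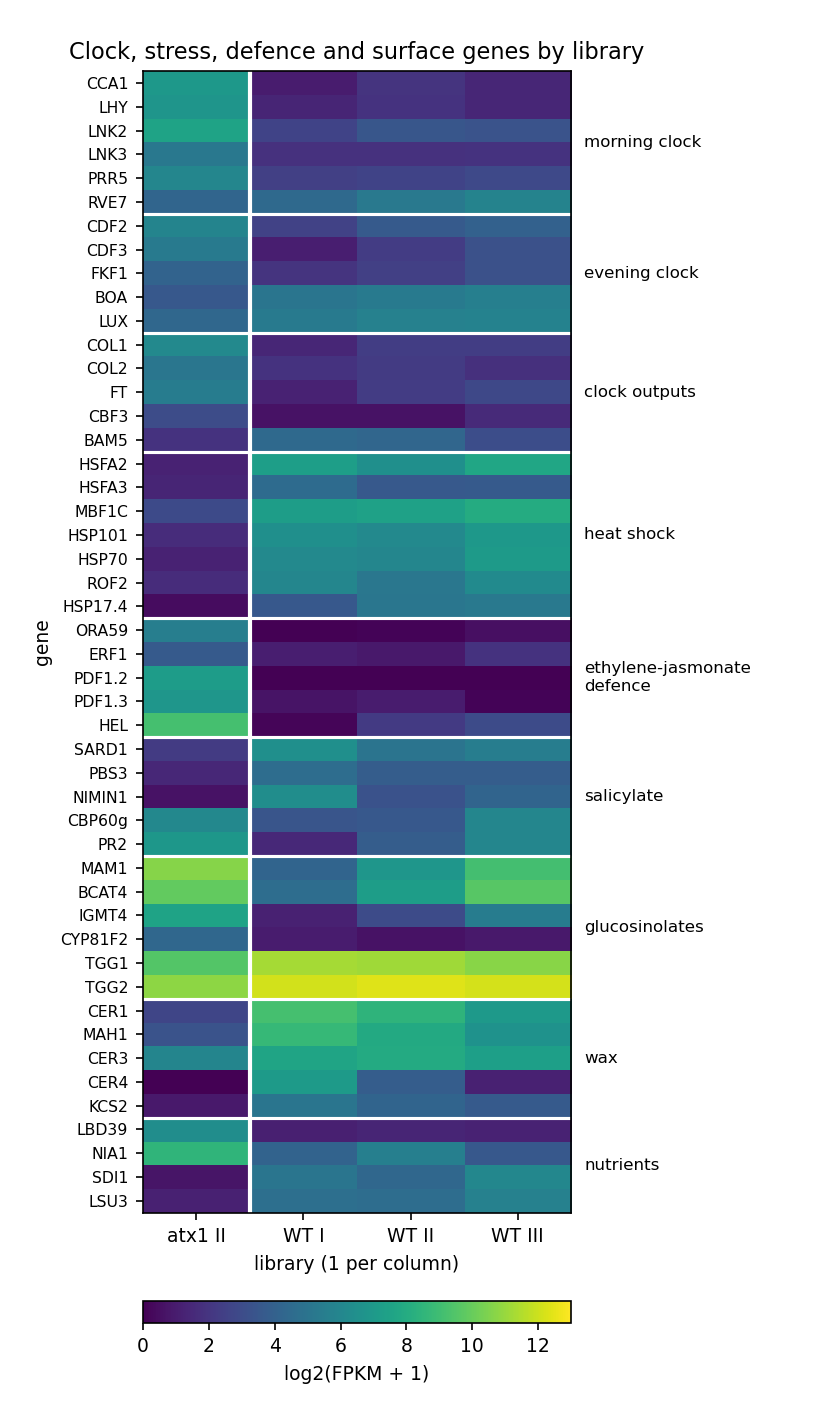
Levels of 48 genes of the clock, heat shock, defence, glucosinolates, wax and nutrient status in the 4 libraries, 1 library a column, as log2(FPKM + 1) on a colour scale. In the atx1-labelled column morning clock and ethylene-jasmonate genes are bright and heat shock and wax genes dark, as for CCA1 at 121.08 FPKM and CER1 at 5.64 FPKM, while the 3 WT columns resemble each other for the clock and heat genes.

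Many heat shock genes were lower than in every WT library. Of 25 chaperone and heat response genes, 14 were lower and 1 higher, with a median of -1.48. Below the whole WT range by at least 2-fold lay 14, against 4.68% of all 18858 genes. The list holds 3 genes that encode no chaperone, MBF1C, DREB2A and GolS1, and without them 12 of 22 were lower and 0 higher, with a median of -1.43. HSP101, a disaggregase gene, was at 2.19 FPKM in the atx1-labelled library, against 88.18, 69.24 and 122.09 FPKM in WT I, II and III. HSP70 (AT3G12580) was at 1.35 FPKM, against 68.78, 62.42 and 132.47 FPKM. MBF1C, a coactivator gene of the heat response, was at 6.55 FPKM, against 148.55, 173.09 and 254.11 FPKM, and ROF2 at 2.09 FPKM, against 62.28, 34.06 and 72.97 FPKM. The exception was GolS1, a galactinol synthase gene that heat also induces, at 400.04 FPKM, against 4.48, 19.43 and 15.82 FPKM.

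Heat shock factors were lower for 4 of 17 and higher for 0, with a median of -0.28. HSFA2 was at 1.37 FPKM in the atx1-labelled library, against 152.47, 87.87 and 207.87 FPKM in WT I, II and III, and HSFA3 at 1.56 FPKM, against 22.04, 11.32 and 11.72 FPKM. HSFB2B was at 6.79 FPKM, against 29.91, 35.82 and 46.76 FPKM. Of 5 measured small heat shock protein genes 4 were lower, HSP17.4 at 0.37 FPKM against 10.78, 33.05 and 37.25 FPKM. Genes listed for protein folding in the endoplasmic reticulum were mostly within 2-fold of WT II, with 2 of 17 lower and a median of -0.42. Over WT III 10 of 18 were lower, with a median of -1.05, where 11.1% of all genes were. Over WT I 11 of 17 were lower, with a median of -1.51, where 19.8% of all genes were. The 1 entry of that list called higher over WT II, CNX2 (AT2G31955), is a gene of molybdenum cofactor synthesis and not of protein folding. The labels do not record the temperature at harvest apart from the 22 °C of growth, and its part was not tested.

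Wax genes of the stem surface were lower. Of 23 genes of wax synthesis and export, 12 were lower and 0 higher, with a median of -1.03. By FPKM as deposited 17 lay below all 3 WT libraries, where 22.8% of all members did. By at least 2-fold after centring, 6 of 25 lay below the whole WT range, against 4.68% of all 18858 genes. CER1, of alkane formation, was at 5.64 FPKM in the atx1-labelled library, against 577.89, 355.28 and 124.27 FPKM in WT I, II and III. CER3, its partner, was at 58.73 FPKM, against 195.19, 248.92 and 162.32 FPKM. MAH1, which oxidises the alkanes, was at 8.91 FPKM, against 416.34, 237.84 and 97.14 FPKM. CER4, of primary alcohols, was listed at 0, against 135.02, 13.09 and 1.31 FPKM, and the elongation gene KCS2 was at 0.86 FPKM, against 32.33, 16.94 and 11.61 FPKM.

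Other surface genes differed less. Cutin synthesis had 1 of 9 higher, the lipase-like gene LTL1, and 3 lower, with a median of -0.50. LACS2 was at 1.25 FPKM in the atx1-labelled library, against 29.99, 10.93 and 9.13 FPKM in WT I, II and III. Suberin synthesis had 0 of 4 higher and 0 lower. Of 6 measured epidermis identity genes 0 were called, with a median of -0.19, and ATML1, the epidermal identity factor, was at 5.94 FPKM, against 11.67, 4.31 and 4.38 FPKM. Stomatal genes had 1 of 8 higher and 1 lower, and trichome genes 0 of 4 higher and 1 lower.

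Photosynthesis genes were lower than in WT II but close to WT III. Of 31 nuclear photosystem subunit genes 24 were lower and 0 higher, with a median of -1.24, and of 26 Calvin cycle and photorespiration genes 22 were lower and 0 higher, with a median of -1.46. Against WT III the subunits had 1 higher, 1 lower and a median of -0.08, and the Calvin cycle 0 higher, 2 lower and a median of -0.27. PSBQ-1, a subunit of photosystem II, was at 304.99 FPKM in the atx1-labelled library, against 1191.12, 1010.45 and 392.68 FPKM in WT I, II and III. PETE2, a plastocyanin gene, was at 41.81 FPKM, against 100.15, 144.8 and 80.62 FPKM, below all 3. RBCS3B, a Rubisco small subunit gene, was at 1978.45 FPKM, against 9474.91, 9035.2 and 3226.25 FPKM, but RBCS copies can share reads. CA1, a carbonic anhydrase gene, was at 627.37 FPKM, against 2165.39, 3338.76 and 1057.77 FPKM.

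The light-harvesting antenna did not go with them. Of 21 antenna genes 3 were higher and 5 lower, with a median of -0.30, and their summed level was 18289.48 FPKM in the atx1-labelled library, against 13735.7, 17576.41 and 8213.16 FPKM in WT I, II and III. LHCB1.1 was at 815.07 FPKM, against 92.44, 24.95 and 12.95 FPKM, and LHCB1.4 at 80.93 FPKM, against 21, 748.74 and 80.66 FPKM. As near-identical copies they can share reads, and the sum is the safer value. LHCB4.3 was lower at 34.08 FPKM, against 187.16, 162.75 and 58.68 FPKM. Chlorophyll synthesis had 5 of 16 lower and 1 higher, with a median of -0.53. PORC, a light-dependent reductase gene, was at 16.62 FPKM, against 110.44, 59.44 and 35.54 FPKM, and the regulator GLK2 was higher at 74.06 FPKM, against 14.55, 24.13 and 36.96 FPKM.

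Of 27 genes of sugar starvation and senescence, 12 were higher and 3 lower, although the list median was 0.18. SEN1, a dark-induced gene, was at 101.8 FPKM in the atx1-labelled library, against 0.32, 2.83 and 0.35 FPKM in WT I, II and III. SAG21, a late embryogenesis-like gene, was at 1772.92 FPKM, against 210.11, 126.75 and 129.19 FPKM, and SAG13 at 100.33 FPKM, against 0.34, 9.87 and 13.95 FPKM. DIN11, a dioxygenase gene induced in the dark, was at 132.22 FPKM, listed at 0 in WT I and at 0.48 and 0.04 FPKM in WT II and III. DIN9, an isomerase gene, was lower at 1.02 FPKM, against 1.88, 7.18 and 9.6 FPKM. Among 27 genes of sugar transport and starch 5 were higher and 4 lower, with SWEET13 at 15.2 FPKM, against 0.35, 0.05 and 0.74 FPKM, and BAM1, an amylase gene, lower at 38.47 FPKM, against 75.85, 103.63 and 92.98 FPKM.

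Nutrient genes lay on both sides. Of 29, 7 were higher and 7 lower, with a median of -0.56. The nitrate-linked LBD39 was at 80.69 FPKM in the atx1-labelled library, against 1.21, 1.57 and 1.34 FPKM in WT I, II and III, and the nitrate reductase gene NIA1 at 358.18 FPKM, against 16.33, 47.44 and 11.05 FPKM. The sulphur-linked SDI1, LSU3 and LSU2 were lower. SDI1 was at 0.69 FPKM, against 32.41, 19.13 and 64.43 FPKM, LSU3 at 1.25 FPKM, against 26.27, 24.07 and 50.67 FPKM, and LSU2 at 5.51 FPKM, against 23.48, 29.11 and 75.22 FPKM. All 5 lay outside the WT range.

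Among hormone lists, those of ethylene and cytokinin leaned to the higher side. Ethylene had 7 of 14 higher and 2 lower, with a median of 0.73. ACO4, which makes ethylene, was at 345.31 FPKM in the atx1-labelled library, against 24.04, 20.79 and 40.72 FPKM in WT I, II and III. The receptor genes ERS1 and ETR2 were at 70.4 and 14.62 FPKM, against 13.72 and 3.02 FPKM in WT II, and ERF1, a factor of the response, was at 11.72 FPKM, against 1.1, 0.85 and 2.8 FPKM. ACS11 was lower at 0.98 FPKM, against 32.68, 15.16 and 3.14 FPKM. Cytokinin response had 8 of 16 higher and 0 lower, with a median of 0.99, ARR9 being at 32.5 FPKM, against 9.67, 7.42 and 11.9 FPKM, and the activating enzyme gene LOG1 at 73.52 FPKM, against 27.45, 18.66 and 28.73 FPKM.

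Other hormone and stress lists were mixed, several with counts near the shares of all members, 8.24% higher and 13.6% lower. Gibberellin metabolism and GASA genes had 4 of 17 higher and 1 lower, auxin response 2 of 16 higher and 4 lower, and brassinosteroid genes 1 of 17 higher and 4 lower. GH3.3, an auxin-conjugating enzyme gene, was at 10.69 FPKM in the atx1-labelled library, against 0.27, 0.37 and 0.71 FPKM in WT I, II and III. BR6OX2, of brassinosteroid synthesis, was at 1.16 FPKM, against 13.27, 9.35 and 6 FPKM. Abscisic acid and dehydration genes had 1 of 21 higher and 4 lower, with RD22 at 178.88 FPKM, against 386.81, 547.1 and 648.01 FPKM. Cold response had 2 of 15 higher and 1 lower, hypoxia 2 of 10 higher and 1 lower, and touch and early stress 2 of 17 higher and 3 lower. HRE1, a hypoxia factor, was at 23.81 FPKM, against 0.93, 2.37 and 2.36 FPKM, and EXO, a growth-linked gene, at 26.3 FPKM, against 695.78, 116.55 and 127.35 FPKM.

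Genes earlier linked to ATX1 had 0 of 8 higher and 2 lower, with a median of -0.17, and histone genes 1 of 13 higher and 0 lower. HIS1-3, a drought-induced linker histone gene, was the higher one at 106.57 FPKM in the atx1-labelled library, against 0.26, 4.55 and 6.92 FPKM in WT I, II and III. Of 10 reference genes 0 were higher and 1 lower, with a median of -0.24. TUB6, a tubulin gene, was that one, at 216.05 FPKM against 289.07, 664.23 and 655.49 FPKM. UBQ10 was at 1813.04 FPKM, against 413.45, 909.32 and 998.82 FPKM, and PP2AA3, a phosphatase subunit gene, at 27.44 FPKM, against 32.22, 29.06 and 31.17 FPKM.

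The choice of WT library mattered for some lists and not for others. The comparisons share the atx1-labelled library, so they are given side by side only. Over WT III, 1509 of 18124 genes were higher (8.33%) and 2015 lower (11.1%). Over WT I, 3349 of 18607 were higher (18.0%) and 3690 lower (19.8%). Outside the range of all 3 WT libraries by at least 2-fold lay 896 of 18858 genes above (4.75%) and 883 below (4.68%).

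For the 6 wall lists together the median was -1.85 over WT II, -1.82 over WT III and 0.47 over WT I, with 80 of 109 genes lower over WT III and 22 of 111 over WT I. Xylan genes had medians of -2.44, -2.36 and -0.11 in the same order of WT II, III and I, and lignin monomer genes -1.42, -1.84 and 1.08. The chaperone and heat response list was low against each, at -1.48, -1.90 and -1.63, and the morning clock high against each, at 2.14, 2.56 and 3.37. Ethylene-jasmonate defence stood at 2.48, 1.64 and 2.51, with 7 of 13 genes above the whole WT range. Wax genes stood at -1.03, -0.54 and -1.87.

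**Figure D5:**
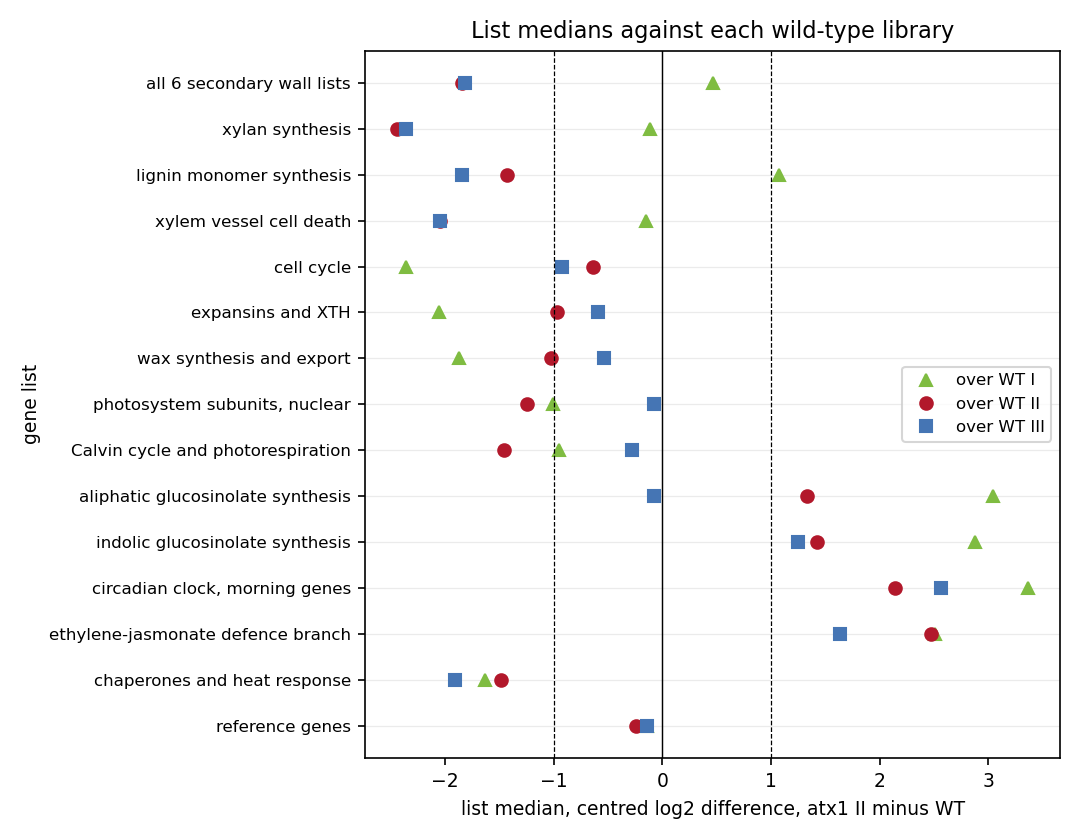
Medians of 15 lists for the atx1-labelled library over WT I (triangles), WT II (circles) and WT III (squares), on the centred log2 scale, with 2-fold dashed. Symbols lie on both sides of 0 for the lignin monomer, aliphatic glucosinolate and pooled wall lists, the last with medians of -1.85 over WT II and 0.47 over WT I. For every other list, the reference genes included, all 3 symbols lie on 1 side of 0. All 3 lie beyond 2-fold for the morning clock, ethylene-jasmonate defence, indolic glucosinolate and heat response lists.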

How the data were processed

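RNA-seq of total RNA from stem segments gave 1 table of FPKM a library, deposited by the authors with 2 decimals. Reads were processed with Trimmomatic, HISAT, Bowtie2 and RSEM on TAIR10, per the submitters' processing notes. The counting's strand setting is not given in the labels. FPKM are not counts, so no count test was run, and with 1 library a group no replicate check exists and no p-value was computed. A harvest time is not given either.

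The tables were joined on gene ID, genes under 1 FPKM in both libraries were left out, and log2(FPKM + 1) was differenced, atx1 II minus WT II, and centred on its median. Differences on this scale understate those of low genes. Calls were centred differences of at least 1. Depth was estimated from the spacing of low FPKM values of short genes, of which 69.5% to 72.0% lay within 0.15 of a whole fragment, where an even spread gives 30%. That depth is approximate.

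Named genes were ATX1, the 10 largest differences each way among named genes at 10 FPKM or more, up to 5 members of each list plus called members against the others, and 7 wall genes fixed by name. The genes, the 61 lists and this rule were chosen with earlier results of these data known. The 8 alternatives included a pseudocount of 0.1, a minimum of 5 FPKM, no filter, no centring and median-of-ratios scaling. The others were rescaling over nuclear genes without centring, and WT I or WT III in place of WT II. The calculation was tested on simulated data. Gene names came from the files and from RefSeq by locus tag, with 23226 of 23238 nuclear genes matched. A planned search of promoters for motifs was not run, and sequences were not used here. Python 3.11.15, pandas 2.3.3, numpy 2.4.6 and matplotlib 3.10.9 were used.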

Additional observations from a re-analysis of the deposited data

How the results depend on the processing

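With 1 library in each group no replicate could be left out, and precision cannot be given beyond the 2 libraries. No paired analysis was possible because each group holds 1 library. The counts of genes kept within 1.5 times of 1487 higher and 2450 lower under the other pseudocount, both filters, median-of-ratios scaling and WT III. Without centring they were 2665 higher and 1569 lower. Rescaling over nuclear genes, also without centring, gave 2910 higher. WT I as the library compared gave 3349 higher and 3690 lower. The cause of the counts over WT I was not tested.

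Of 61 list medians, 56 kept their direction and their side of 2-fold under a pseudocount of 0.1, 57 under median-of-ratios scaling and 54 without the filter. Fewer did so without centring (39), rescaled over nuclear genes without centring (40), against WT III (43) and against WT I (33). At a minimum of 5 FPKM 48 of 60 did. Against WT I the median was 0.40 for NAC regulators, 0.51 for MYB and other regulators, 1.18 for cellulose, 1.08 for lignin monomers and 0.47 for all 6 wall lists, each of the other sign than over WT II, and it was -0.95 for the Calvin cycle. Against WT III it was -0.079 for aliphatic glucosinolates, -0.54 for wax and -0.27 for the Calvin cycle. The wax median was -0.93 without the filter, -0.72 without centring and -0.73 rescaled over nuclear genes, also without centring.

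Of 323 named genes, 300 kept their direction and their side of 2-fold under a pseudocount of 0.1 and 283 without centring. Against WT III 242 of 318 did, and against WT I 219 of 320. Against WT I the centred difference had the other sign for 38 of 320 named genes. Of these, 9 were within 2-fold over WT II, SND1 and NST1 among them, and 29 were called over WT II, at CESA4 2.33, CESA7 2.39, CESA8 1.35, SND2 1.98, VND4 0.050, NST2 2.44, MYB103 2.31, MYB63 0.95, COBL4 0.97, FLA11 1.22, IQD10 3.66, CTL2 3.169, IRX15-L 1.88, CCoAOMT1 0.45, CYP98A3 0.075, 4CL1 1.69, CAD4 0.75, PAL4 3.71, LAC2 0.53, RNS3 0.13, MC9 0.82, VSP1 -1.88, SOT16 0.029, LTL1 -3.84, LHCB1.4 1.81, RAB18 0.32, AMY1 0.21, OPR2 0.71 and GASA14 -1.85. Here RAB18 is the dehydrin gene. Against WT III it had the other sign for 13 of 318, of which 9 were within 2-fold over WT II and 4 were called, at FAH1 -0.68, CBP60g -0.0095, CYP79F1 -0.37 and PSAH2 0.017.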

Other observations

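Several gene families, chosen after their values were seen, are given here by their measured members that are in none of the lists. Of 10 fasciclin-like arabinogalactan protein (FLA) genes 9 were lower and 0 higher. FLA13 was at 23.72 FPKM in the atx1-labelled library, against 111.87, 299.31 and 180.69 FPKM in WT I, II and III. Of 26 genes named AGP, for arabinogalactan proteins of the cell surface, 16 were lower and 2 higher. AGP19 was at 18.5 FPKM, against 61.24, 396.82 and 355.92 FPKM. Of 15 IQD genes 7 were lower and 0 higher, and of 12 early nodulin-like (ENODL) genes 7 were lower and 0 higher.

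Other families leaned to the higher side. Of 39 receptor-like protein (RLP) genes 11 were higher and 2 lower, and of 32 UDP-glycosyltransferase (UGT) genes 11 were higher and 2 lower. Of 37 WRKY factors 10 were higher and 0 lower. With the WRKY factors that are in a list, 11 of 46 were higher and 2 lower, with a median of 0.19. The 2 lower were WRKY70 and WRKY46, both of the salicylate list. Among all members of the comparison 8.24% were higher and 13.6% lower. WRKY26 was at 87.2 FPKM in the atx1-labelled library, against 0.05, 1.12 and 2.63 FPKM in WT I, II and III. RLP19 was at 113.32 FPKM, against 1.54, 22.02 and 24.34 FPKM.

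Of 59 measured chloroplast genes 4 were higher and 11 lower, with a median of -0.26. Among all members 8.24% were higher and 13.6% lower. RPS12B and RPS12C had identical values, as did RPS7.1 and RPS7.2, and RPL23.1 and RPL23.2. Both genes of each pair are in the lower count and in the sums below. The summed level of chloroplast genes did not follow that median. The sum over the 74 listed was 5664.17 FPKM in the atx1-labelled library, against 4940.67, 3295.44 and 3942.67 FPKM in WT I, II and III. ATPE, PB, PSBD and PSBC made up 3227.3 FPKM of it, against 890.89, 994.32 and 2336.37 FPKM, and the other 70 genes 2436.87 FPKM, against 4049.78, 2301.12 and 1606.3 FPKM. ATPE, of the ATP synthase, was at 1769.28 FPKM, against 483.64, 491.56 and 1083.08 FPKM. The 108 mitochondrial genes summed to 177.19 FPKM, against 52.55, 92.09 and 89.82 FPKM. Calls also varied with gene length and level. In the shortest of 5 equal length groups 11.5% of genes were higher and 21.3% lower, and in the longest 4.83% and 9.75%. Of genes averaging 100 FPKM or more, 9.49% were higher and 24.3% lower. Their part in the results was not tested.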
